A study of Mus musculus with 6 samples.

Results

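The transcripts of 10 genes that drive cells through G1 and into S phase were followed in embryonic mouse lenses, namely those of the D-type cyclins Ccnd1, Ccnd2 and Ccnd3, the kinases Cdk4 and Cdk6, the E-type cyclins Ccne1 and Ccne2, the kinase Cdk2, and the transcription factors E2f1 and E2f4. The genes were chosen by symbol, as the G1 cyclins, CDKs and E2F factors among the 13024 genes of the count table, and all 10 were detected and tested. RNA-Seq was performed on 6 pools of E14.5 lenses, with 3 pools of Gata3 CKO lenses and 3 control pools (10 lenses from 5 embryos in each pool). All embryos were of a mixed C57BL/6 and FVB background. CKO embryos carried Gata3 alleles with a floxed exon 4 together with Pax6-Cre, a transgene under Pax6 control sequences whose recombinase acts in the surface cells that give rise to lens and cornea, and the sample labels give their genotype as Gata3 -/-. The labels call the control pools wild type, whereas the study's text gives them as Gata3 f/f in one place and as Gata3 f/wt in another, in both cases without Cre. The presence of Cre and the loss of Gata3 therefore cannot be told apart in these libraries. A pool is a whole dissected lens with whatever tissue adhered to it, and in such bulk RNA a larger number of cells of a type and more RNA per cell cannot be told apart either.

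D-type cyclins bind CDK4 and CDK6 in response to growth signals, and the active kinases phosphorylate the pocket proteins Rb1, Rbl1 and Rbl2. This releases E2F factors such as E2f1, which switch on Ccne1, Ccne2, E2f1 itself and the genes for DNA replication. E-type cyclins then activate CDK2 and complete the passage into S phase, while CDK inhibitors such as p27 and p57 hold the kinases back. In the lens, the anterior epithelium divides, and cells that move to the equator leave the cell cycle as they elongate into fibre cells. The comparison of CKO with control asks whether the G1 machinery differed between lenses with and without Gata3.

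Values are given as CPM, read counts scaled to a common library size after TMM normalization, for control replicates 1, 2 and 3 and then CKO replicates 1, 2 and 3. Differences are log2 fold changes of CKO against control from an edgeR quasi-likelihood fit over 12879 genes, and p-values were adjusted by the Benjamini-Hochberg method over all of these genes. The libraries held between 15157230 and 18811104 counts, and the 10 genes had between 280 and 37080 counts in each library. At the lowest of these counts the counting error alone was 5.98%.

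Gata3, the targeted gene, had 12.8, 27.2 and 8.71 CPM in control and 59.0, 54.1 and 46.5 CPM in the libraries labelled CKO, so its count per gene was higher where its loss is labelled. The deletion is of exon 4, and since the deposited values do not resolve exons, the count over the whole gene does not check it. Directions are therefore those of the libraries labelled CKO. Control replicate 2 stood apart from the other libraries, with the highest summed level of 15 lens fibre markers (25464 CPM, against 8099 to 12233 CPM in the others) and the lowest summed level of 12 retina markers (1726 CPM, against 2608 to 3795 CPM). Mesenchyme markers were highest in CKO replicate 2 (4206 CPM) and control replicate 1 (2394 CPM), against 319 to 685 CPM in the other libraries. Vessel, macrophage, blood, pigment cell and surface ectoderm markers overlapped between the groups. Crystallins (16 genes) and the defining lens fibre and lens epithelium markers in the table were counted in every library.

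Adjusted over all genes, the p-value in edgeR fell below 0.05 for 0 of the 10 genes and for 0% of all genes tested. DESeq2, run on the same counts, called 0 of the 10 and 85 of all genes tested (0.66%). The clearest differences were those of the E-type cyclins. Ccne1 and Ccne2 were higher in all 3 CKO libraries than in all 3 control libraries, and among the 10 they alone passed 0.05 before adjustment and they alone had groups that did not overlap. Over all genes tested, 3.55% passed 0.05 before adjustment and 1.3% did so with the higher level in CKO. Every CKO value lay above every control value in 3.67% of them and below in 4.69%, which is 8.36% without overlap in either direction. Of the log2 fold changes of the other 8 genes, 5 were positive and 3 negative, between -0.06 and 0.14. The median over the 10 genes was 0.07, and that over all genes tested was 0.00187.

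Ccne1, on the reverse strand of chromosome 7 (38097984–38107534; all positions are in GRCm38), encodes cyclin E1. It had 24.4, 19.7 and 17.6 CPM in control and 30.8, 24.7 and 26.2 CPM in CKO, means of 20.6 ± 3.48 and 27.2 ± 3.17 CPM (SD, n = 3). The lowest CKO value was that of replicate 2 and lay just above the highest control value, that of replicate 1, a margin of 1.33% where the counting error of the ratio of these values was 6.82%. The level was 32.4% higher in CKO, and the fitted log2 fold change was 0.40 with a standard error of 0.15 and a 95% interval of 0.04 to 0.77. The unadjusted p-value was 0.0338 and the adjusted p-value 0.9998 in edgeR. The exact two-sided permutation test over the 6 libraries gave p = 0.1, and no smaller p can be reached with 3 pools in each group.

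Ccne2, on the forward strand of chromosome 4 (11191351–11204779), encodes cyclin E2. It had 41.9, 31.5 and 37.9 CPM in control and 43.4, 48.1 and 48.3 CPM in CKO, means of 37.1 ± 5.24 and 46.6 ± 2.80 CPM (SD, n = 3). Here the groups were separated by 3.57%, between control replicate 1 and CKO replicate 1, with a counting error of 5.48%. The level was 25.6% higher in CKO, and the fitted log2 fold change was 0.33 with a standard error of 0.12 and a 95% interval of 0.04 to 0.62. In edgeR the unadjusted p-value was 0.0303 and the adjusted p-value 0.9998, and the exact two-sided permutation p was 0.1. When single libraries were dropped, Ccne1 kept a log2 fold change of 0.30 to 0.56 and Ccne2 one of 0.24 to 0.44, and both were positive under all 12 alternatives. Before adjustment, both genes passed 0.05 in the alternatives that kept all libraries. Of the fits with a library dropped, Ccne1 passed 0.05 only in those without control replicate 1 and without CKO replicate 2. Ccne2 passed without each of the control replicates and without CKO replicate 1, and neither gene passed without CKO replicate 3. The summed level of the lens epithelium markers (6 of 6 counted) also separated the groups, the other way. It was 1326 to 1541 CPM in control and 1276 to 1312 CPM in CKO, a narrow gap. The leading markers of that list, Pax6, Gja1 and Six3, each overlapped between the groups. Pax6 alone had 586 to 662 CPM over the libraries. Six3 was highest in control replicate 3 (309.5 CPM) and CKO replicate 3 (284 CPM), where the retina markers were also highest. Whether the sum followed the lens epithelium alone was not tested. The part of the lens epithelium in the Ccne1 and Ccne2 values was not tested.

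Per kb of exon, the E-type cyclins differed little from each other in level. Divided by exon length (2 kb for Ccne1 and 3.2 kb for Ccne2), Ccne1 had 8.80 to 15.4 and Ccne2 9.84 to 15.1 CPM per kb over the 6 libraries, and Ccne2 was the higher in 4 of them. Ccne1 made up 47.0 ± 3.89% of the summed E-type cyclin level per kb in control and 48.3 ± 4.32% in CKO (SD, n = 3), so on this scale both genes contributed about equally in both groups. Per coding length these shares were 35.4% and 36.6%. On that scale Ccne2 was the higher, with 26.0 to 39.9 CPM per kb against 14.4 to 25.2 for Ccne1, so their relation depends on the length used. The summed level of both genes was 25.3, 19.7 and 20.7 CPM per kb in control and 29.0, 27.4 and 28.2 CPM per kb in CKO, where it varied little between pools.

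**Figure D1:**
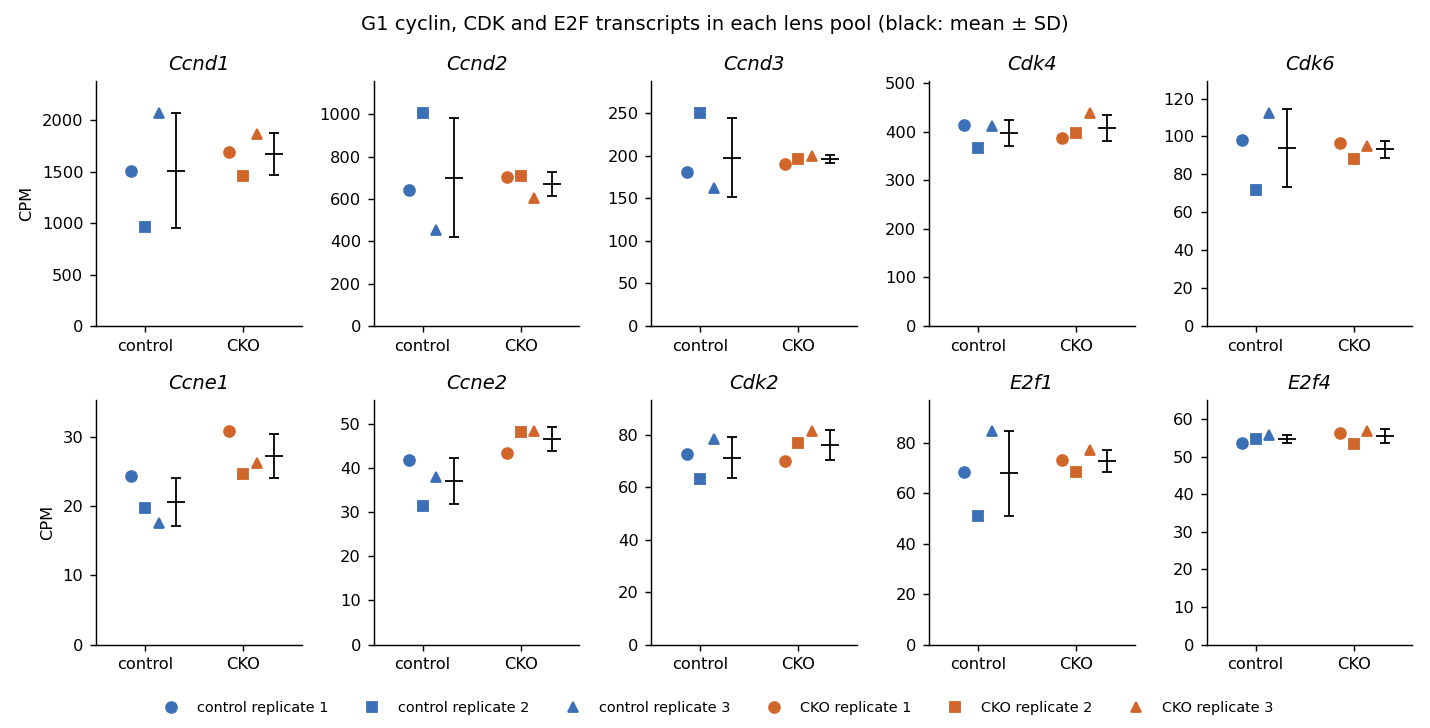
CPM of each of the 10 genes (vertical axis, starting at 0) in the 3 control pools (blue) and the 3 CKO pools (orange), with the replicate number given by the symbol and the mean ± SD in black. Ccne1 and Ccne2 are the genes whose CKO values all lie above the control values, and in Ccnd1, Ccnd2, Ccnd3, Cdk6 and E2f1 the control pools spread far more widely than the CKO pools.

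Cdk2, the kinase partner of the E-type cyclins, lies on the reverse strand of chromosome 10 (128697939–128705031). It had 72.6, 63.1 and 78.5 CPM in control and 69.9, 76.9 and 81.3 CPM in CKO. The groups overlapped, and the log2 fold change was 0.09 (standard error 0.11, 95% interval -0.16 to 0.34, adjusted p = 0.9998 in edgeR). The bases upstream of Cdk2 are shown because this was the only window, among the 7 windows of 6 of the 10 genes in the RefSeq promoter table (GRCm38.p6), with an E2F word. The words searched were TTTCCCGC, TTTCGCGC, TTTGCCGC and TTTGGCGC on both strands of the 250 bases before a start. Capitals mark the word, TTTCCCGC on the opposite strand, which begins 140 bases before the start. Such a word was found for 3.94% of the 10084 genes of the count table with a window.
Cdk2 upstream, reverse strand of chr10:128705052-128705301: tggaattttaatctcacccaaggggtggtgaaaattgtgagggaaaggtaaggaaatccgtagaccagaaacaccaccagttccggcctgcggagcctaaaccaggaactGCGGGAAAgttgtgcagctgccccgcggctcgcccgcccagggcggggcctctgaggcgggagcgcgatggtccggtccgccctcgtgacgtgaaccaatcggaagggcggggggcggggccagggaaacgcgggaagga

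The GATA words AGATAA and TGATAA, on either strand, were found in none (0) of the 7 windows of these genes, against 10.7% of the genes of the count table with a window. A match or its absence describes the letters of these windows and says nothing of binding. The windows of E2f1 and Cdk6 and the downstream window of Ccnd3 lie inside the gene as annotated by GENCODE.

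Ccnd1 was the most abundant of the 10 transcripts per length, and its control pools differed widely from each other. The gene (chromosome 7, 144929931–144939925, reverse strand) encodes cyclin D1, which is known to be abundant in dividing retinal progenitor cells as well as in the lens epithelium. It had 1504, 960 and 2071 CPM in control and 1689, 1461 and 1864 CPM in CKO. Control replicates 2 and 3 held the lowest and the highest value of all libraries, a 2.16-fold range, while the CKO libraries spanned 1.28-fold. Means were 1512 ± 556 and 1671 ± 202 CPM (SD, n = 3), and CKO was 0.14 above control on the log2 scale (standard error 0.27, adjusted p = 0.9998 in edgeR), with a 95% interval of -0.51 to 0.80. It was 0.44 without control replicate 3 and -0.0850 without control replicate 2, so its sign rested on the latter.

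Ccnd2, on the reverse strand of chromosome 6 (127125162–127152193), encodes cyclin D2 and showed the opposite order among the control pools. It had 642, 1006 and 456 CPM in control and 702, 707 and 605 CPM in CKO, and its highest and lowest values were also those of control replicates 2 and 3. The log2 fold change was -0.06 (standard error 0.27, 95% interval -0.72 to 0.60, adjusted p = 0.9998 in edgeR), and it was 0.30 without control replicate 2 and -0.30 without control replicate 3. Ccnd3, on the forward strand of chromosome 17 (47505051–47599691), encodes cyclin D3. It had 180, 250 and 162 CPM in control and 191, 196 and 200.3 CPM in CKO, so that the 3 CKO values lay between the control extremes. Its log2 fold change was -0.0128 (standard error 0.16, 95% interval -0.39 to 0.37, adjusted p = 0.9998 in edgeR). Without control replicate 2 it was 0.20.

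The mix of D-type cyclins therefore differed widely between the control pools, and the shares were described without a test between groups. Per kb of exon, Ccnd1 made up 68.9%, 48.8% and 79.4% of the summed level of the 3 genes in control and 69.8%, 66.3% and 73.0% in CKO. Ccnd2 made up 17.4%, 30.2% and 10.3% in control and 17.1%, 18.9% and 13.997% in CKO, and Ccnd3 took the remaining 10.3% to 21.1%. The ratio of Ccnd1 to Ccnd2 per kb ran from 1.61 in control replicate 2 to 7.69 in control replicate 3, and was 3.50 to 5.22 in CKO. The summed level varied less than its parts, with 583, 526 and 698 CPM per kb in control and 647, 589 and 683 CPM per kb in CKO. All of these groups overlapped.

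The level of Ccnd1 moved with that of the retina markers. The 6 libraries took the same order in both, with control replicate 3 highest, followed by CKO replicates 3 and 1, control replicate 1, CKO replicate 2 and control replicate 2. These extremes were shared with many other genes. Over all genes tested, control replicate 2 was lowest in 31.6% and control replicate 3 highest in 23.6%. Relative to the mean of the 6 libraries, Ccnd1 ran from 0.603 to 1.30 and the sum of the 12 retina markers from 0.597 to 1.31. All 12 retina markers were in the table and counted in every library, and their sum was 1726 to 3795 CPM in control and 2608 to 3516 CPM in CKO. The leading retina marker, Fgf15, had 865, 479 and 1119 CPM in control and 866, 791 and 988 CPM in CKO. Ccnd2 and Ccnd3 were highest in control replicate 2 (1.47 and 1.27 relative to the mean), where the lens fibre markers were also highest (2.02), and lowest in control replicate 3. The order over all pools differed, since the lens fibre markers were lowest in CKO replicate 3 (0.64). There Ccnd2 was at 0.88 and Ccnd3 at 1.02. In a fit that also held the retina and mesenchyme marker levels, the log2 fold change of Ccnd1 was 0.0214, that of Ccnd2 was 0.21 (adjusted p = 0.144 in edgeR) and that of Ccnd3 was 0.13 (adjusted p = 0.618). This fit held no lens fibre markers. The part that retinal tissue or the share of fibre cells had in the D-type cyclin values was not tested.

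**Figure D2:**
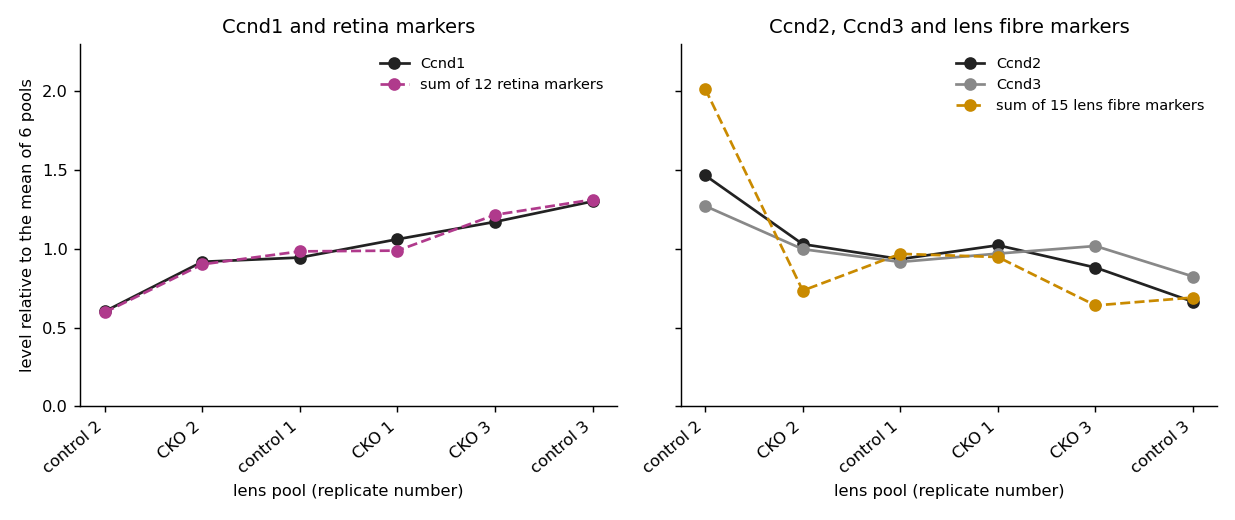
Levels in each pool relative to the mean of the 6 pools (vertical axis, no unit), with the pools placed from the lowest to the highest sum of retina markers. Ccnd1 and the retina markers both rise from about 0.6 in control replicate 2 to 1.3 in control replicate 3 (left), and Ccnd2, Ccnd3 and the lens fibre markers are highest in control replicate 2 (right).

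Cdk4, on the forward strand of chromosome 10 (127063534–127067920), is a kinase partner of the D-type cyclins. It was much steadier than these, with 412, 366 and 411 CPM in control and 388, 397 and 438 CPM in CKO, and the groups overlapped. Its log2 fold change was 0.04 (standard error 0.0893, 95% interval -0.17 to 0.25, adjusted p = 0.9998 in edgeR). The upstream bases of Cdk4 are shown because they hold 4 copies of the E-box CACGTG, the word bound by Myc and its partner Max, a motif added after this window had been read. The copies, in capitals, begin 172, 118, 98 and 11 bases before the start. CACGTG, which reads the same on both strands, was found at least once for 9.90% of the genes of the count table with a window, and among these genes also once in the window of Cdk6.
Cdk4 upstream, forward strand of chr10:127063285-127063534: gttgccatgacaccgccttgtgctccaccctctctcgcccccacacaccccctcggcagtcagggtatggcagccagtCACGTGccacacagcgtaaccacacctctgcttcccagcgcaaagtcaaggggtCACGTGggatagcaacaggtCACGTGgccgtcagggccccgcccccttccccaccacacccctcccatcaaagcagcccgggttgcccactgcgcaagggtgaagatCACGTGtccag

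Cdk6, the other kinase partner of the D-type cyclins, lies on the forward strand of chromosome 5 (3341485–3531008). It had 98.1, 71.7 and 112 CPM in control and 96.5, 87.9 and 95.01 CPM in CKO, with the lowest and highest values again in control replicates 2 and 3. Its log2 fold change was -0.0149 (standard error 0.16, 95% interval -0.40 to 0.37, adjusted p = 0.9998 in edgeR), and -0.17 without control replicate 2. Per kb of exon, Cdk4 made up 95.4% to 96.6% of the summed level of both kinases in every library, and 79.7% to 84.6% per kb of coding length. Cdk6 has 11.5 kb of exon of which 0.978 kb is coding, so its level relative to other genes depends on the length used.

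E2f1, an activating E2F factor, lies on the reverse strand of chromosome 2 (154559407–154569892). It had 68.3, 50.8 and 84.5 CPM in control and 73.0, 68.5 and 77.2 CPM in CKO, and its extremes were once more control replicates 2 and 3. Its log2 fold change was 0.10 (standard error 0.18, 95% interval -0.32 to 0.53, adjusted p = 0.9998 in edgeR). It was 0.29 without control replicate 3 and -0.0561 without control replicate 2. E2f4, which acts mainly as a repressor together with pocket proteins in resting cells, lies on the forward strand of chromosome 8 (105297663–105305370). It was the steadiest of the 10 transcripts, with 53.7, 54.6 and 55.6 CPM in control and 56.2, 53.4 and 56.7 CPM in CKO, and a coefficient of variation of 2.48% over the 6 libraries against 6.10% to 26.5% in the other 9. Its log2 fold change was 0.02 (standard error 0.0706, 95% interval -0.15 to 0.19, adjusted p = 0.9998 in edgeR).

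**Figure D3:**
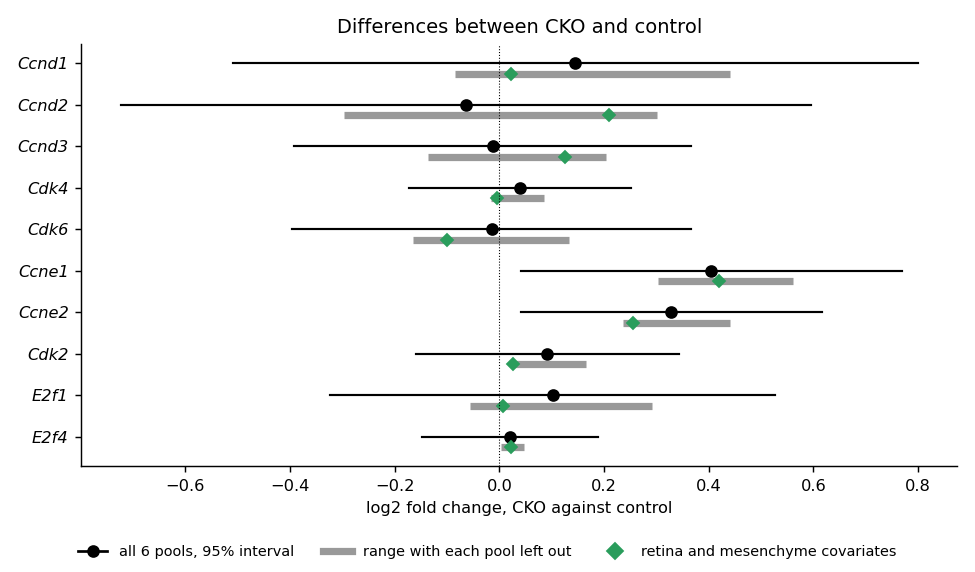
Log2 fold change of CKO against control (horizontal axis) for the 10 genes, from the fit of all 6 pools with its 95% interval (black), with each pool left out in turn (grey range) and with retina and mesenchyme markers as covariates (green). Only the ranges of Ccne1, Ccne2, Cdk2 and E2f4 stay above 0, and the ranges of the D-type cyclins, Cdk4, Cdk6 and E2f1 cross it.

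In order of level per kb of exon, the means over the 6 libraries were 426 CPM per kb for Ccnd1, 196 for Cdk4, 108 for Ccnd2, 87.1 for Ccnd3, 30.6 for Cdk2, 27.6 for E2f4, 22.3 for E2f1, 13.1 for Ccne2, 11.96 for Ccne1 and 8.12 for Cdk6. The D-type cyclins were thus well above the E-type cyclins, and the ranges over libraries separated Ccnd1 from Cdk4, Cdk4 from Ccnd2, Ccnd3 from Cdk2, and E2f1 from Ccne2. The ranges of the other neighbours overlapped, namely Ccnd2 with Ccnd3, Cdk2 with E2f4, E2f4 with E2f1, Ccne2 with Ccne1 and Ccne1 with Cdk6. Per kb of coding length, Ccnd2 (791 CPM per kb) was above Cdk4 (442), Cdk6 (95.7) took the fifth place above Cdk2 (71.0), and Ccne1 (19.5) was lowest.

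**Figure D4:**
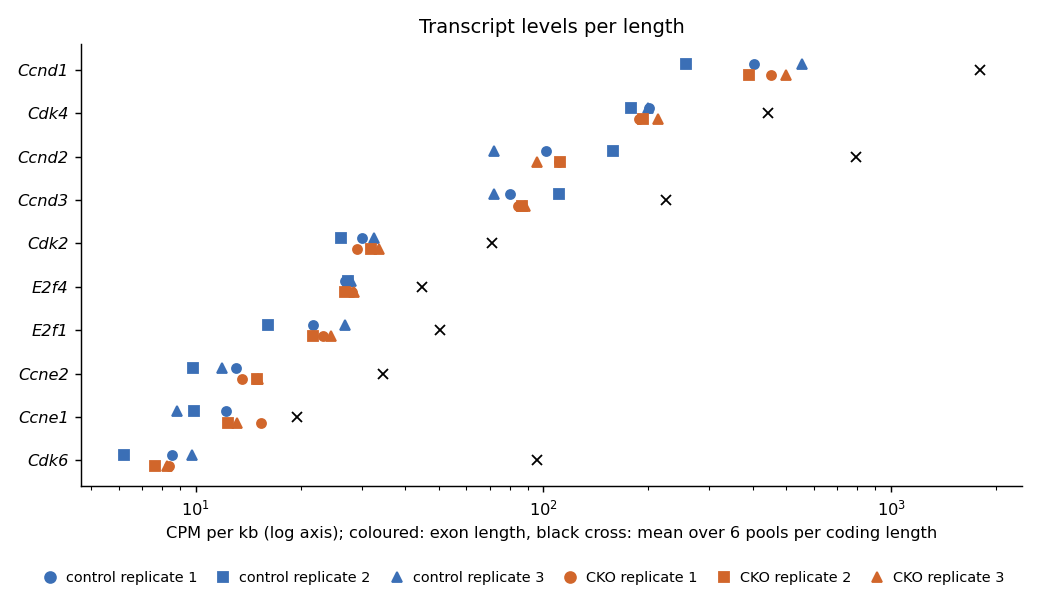
CPM per kb of exon (horizontal log axis) of the 10 genes in each control (blue) and CKO (orange) pool, with the mean over the 6 pools per kb of coding length as a black cross. Ccnd1 is highest on both scales, and Cdk6 moves from the lowest place per kb of exon (8.12 on average) to the fifth per kb of coding length (95.7).

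Exons of 6 of the 10 genes overlap those of a gene on the opposite strand. The study describes its libraries as strand-specific, but how strand was used in counting is not given in the sources used here. Tspan31 shares 31.2% of the exon bases of Cdk4, Oraov1 (Lto1) 29.4% of those of Ccnd1, Ints8 19.0% of those of Ccne2 and Bysl 15.9% of those of Ccnd3. These 4 neighbours had log2 fold changes between -0.18 and -0.0299, and their groups overlapped. Ints8, the neighbour of Ccne2, had 86.8, 96.8 and 92.7 CPM in control and 93.3, 89.8 and 84.3 CPM in CKO. The part of these overlaps in the counts of the 10 genes was not tested. The remaining overlaps, with antisense transcripts not used here, covered 5.88% of the exon bases of Ccnd2 and 0.95% of those of Cdk6.

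The rest of the pathway was followed in 6 lists of 65 genes, of which 63 were tested. In edgeR 0 of the 63 passed 0.05 after adjustment and 1 before it, against 3.55% of all genes. In 4 of the 63, among them E2f3, Ccnh and Cdkn1a, the CKO values all lay above the control values, against 3.67% of all genes, and in 0 they all lay below, against 4.69%. The 28 target genes of E2F at the start of S phase had a median log2 fold change of 0.10, and 23 of them were positive. Over all genes tested, 50.6% were positive, with a median of 0.00187. The lowest were Orc1 of the origin recognition complex (-0.10) and the checkpoint kinase Chek1 (-0.0407).

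The excess of small positive values among the E2F targets was lost without control replicate 2, and was smaller without CKO replicate 3 and with the marker covariates. In the other fits 23 or more of the 28 were positive, up to 26 without control replicate 3 (median 0.17). In 26 of the 28 E2F targets, and in all 10 genes of mitosis, the lowest value of the 6 libraries was that of control replicate 2, as it was in 6 of the 10 genes described above and in 31.6% of all genes tested. Without that library, 9 of the 28 targets were positive and 19 negative, with a median of -0.0147. Without CKO replicate 3, 16 were positive and 12 negative, with a median of 0.0231, and with all libraries and the marker covariates the same counts had a median of 0.0120. The genes of mitosis had a median of 0.0151, from Mki67 (-0.09) and Cenpf (-0.0321) to Ccnb1 (0.11) and Plk1 (0.16), and 6 of 10 were positive. Their direction depended on the fit, with 2 of 10 positive without control replicate 2 (median -0.0759), 3 with the marker covariates (-0.0559), 4 without CKO replicate 3 (-0.0437) and 9 without control replicate 3 (0.13). Mki67, a marker of dividing cells, had 764, 568 and 807 CPM in control and 706, 651 and 653 CPM in CKO.

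Among the other E2F factors and their DP partners, the log2 fold changes lay between -0.00340 and 0.21, with a median of 0.07 and 6 of 8 positive. E2f2, an activating E2F, was highest with 24.5, 26.2 and 34.4 CPM in control and 34.6, 29.7 and 34.0 CPM in CKO, and E2f5 had a log2 fold change of 0.13. Tfdp2 and E2f6 were the lowest, both at about -0.003. Of the pocket proteins, Rb1 had a log2 fold change of 0.0146, Rbl1 of 0.08 and Rbl2 of -0.0346, all with overlapping groups.

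The CDK inhibitors held the widest differences of the pathway, in opposite directions, with 5 of 7 genes in the table. Cdkn1a, which encodes p21, had 9.504, 14.2 and 6.98 CPM in control and 18.2, 19.5 and 18.7 CPM in CKO, without overlap. The difference was 0.88 on the log2 scale (standard error 0.25), with an unadjusted p-value of 0.0103 and an adjusted p-value of 0.967 in edgeR. It was the 1 gene of the 63 that passed 0.05 before adjustment. In the fit with retina and mesenchyme markers it was 1.10 (adjusted p = 5.73e-05 in edgeR), and over the other alternatives its adjusted p-value was 0.0929 to 0.99999. The fit with markers estimated both marker levels and the group from only 6 libraries. It called 442 of all genes tested, against 0 without the markers, so its p-value for Cdkn1a is to be read with caution. Cdkn1c, which encodes p57, had 511, 981 and 434 CPM in control and 387, 450.3 and 401 CPM in CKO. Its groups overlapped, its log2 fold change was -0.64 (adjusted p = 0.9998), and its highest value was again that of control replicate 2. Cdkn1b (p27) and Cdkn2d had log2 fold changes of 0.09 and 0.14, and the median of the 5 genes was 0.12. Of the 9 genes for activation and turnover of the kinases, 5 were positive, with a median of 0.04. Cks1b, a CDK subunit, and Ccnh, the cyclin of the CDK-activating kinase, were the highest (0.19 and 0.12), and Mnat1, the assembly factor of that kinase, and Fbxw7, which marks cyclin E for destruction, were the lowest (-0.10 and -0.0337).

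**Figure D5:**
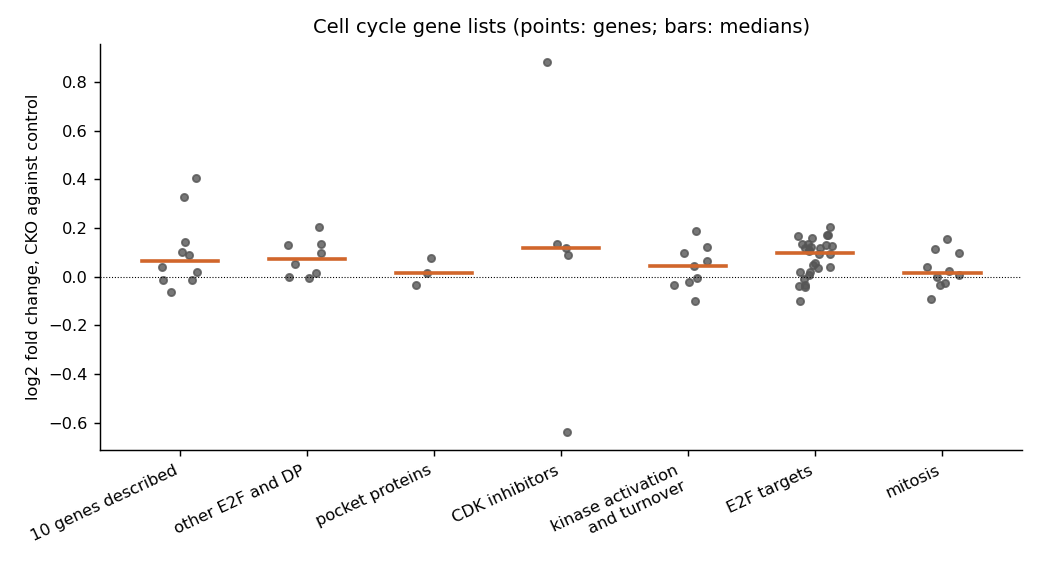
Log2 fold changes of CKO against control (vertical axis) for the 10 genes and for the 6 lists of other cell cycle genes, with a point for each gene and an orange bar for the median. All medians lie between 0 and 0.12, and the points farthest from 0 are the CDK inhibitors Cdkn1a (0.88) and Cdkn1c (-0.64), with Ccne1 (0.40) and Ccne2 (0.33) next.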

How the data were processed

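Each library was made from polyA RNA of 10 lenses from 5 E14.5 embryos. The authors aligned the reads to mm10 with TopHat 2.0.13, counted fragments per RefSeq gene with HTSeq 0.6.1, and deposited these raw counts without normalization, leaving out genes whose mean FPKM did not exceed 1 in at least one of the groups. Options of the counting are not given in the sources used here. CKO replicates are numbered by the sample titles. Whether the pools of a group came from different litters is not given in the sources used here.

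The filter kept 12879 genes that reached 10 counts in 3 or more libraries. TMM factors and a robust quasi-likelihood fit of group alone came from edgeR 4.0.16, run in R 4.3.3. Standard errors and 95% intervals were derived from its F statistics. Exact permutation tests compared log2(CPM + 0.5). Alternatives were DESeq2 1.42.0, RLE factors, no filter, crystallins left out of library sizes, the replicate block, marker covariates, and each library left out, 12 in all. Positions and lengths (exons of transcripts with a RefSeq match) were those of GENCODE M21 (GRCm38, equivalent to mm10), and upstream sequences those of RefSeq. Text names all 10 genes, Gata3 and, in each list, the 2 lowest and 2 highest genes. Some genes that this rule names are not reported here. Oraov1, Tspan31, Bysl, Ints8, Fgf15, Pax6, Gja1, Six3 and E2f3 were named after their values were seen. The members, lists and covariates were chosen with earlier results of these data known.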

Additional observations from a re-analysis of the deposited data

How the results depend on the processing

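All 10 genes stayed above an adjusted p-value of 0.05 under each of the 12 alternatives. Over all genes, edgeR called 0 with all libraries (457 at an unadjusted p-value under 0.05), DESeq2 called 85 with 0 of the 10 among them, and the fit with retina and mesenchyme covariates called 442. Dropping single libraries gave 0 to 1, the latter without control replicate 3; the cause was not tested. Ccne1, Ccne2, Cdk2 and E2f4 kept their sign under all alternatives. The signs of the others changed as follows. When single libraries were dropped, the log2 fold change was -0.0850 to 0.44 for Ccnd1, -0.30 to 0.30 for Ccnd2, -0.14 to 0.20 for Ccnd3, -0.0161 to 0.0847 for Cdk4, -0.17 to 0.13 for Cdk6 and -0.0561 to 0.29 for E2f1. With the covariates it was 0.21 for Ccnd2, 0.13 for Ccnd3 and -0.00395 for Cdk4. The replicate number as a block (replicate block) gave 0.0101 for Ccnd2, 0.0117 for Ccnd3 and 0.00828 for Cdk6, and 0.41 for Ccne1. The block called 0 genes, and same-numbered libraries share only a number, since the deviations from group means correlated at -0.487, 0.0899 and 0.442 for numbers 1, 2 and 3, and not every library correlated best with its own number. Adjusted p-values over the alternatives were 0.156 to 0.99999 for Ccne1 and 0.151 to 0.99999 for Ccne2. Before adjustment, Ccnd2 also passed 0.05 in edgeR with the covariates, and Ccnd3 without control replicate 2. Per coding length, the Ccnd1 share was 65.3% in CKO, the Ccne1 share 35.4% in control and 36.6% in CKO, and the Cdk4 share 82.1% and 82.5%, because untranslated exon lengths differ. With 3 pools a group, the 95% intervals of Ccnd1, Ccnd2, Ccne1, Ccne2 and E2f1 do not exclude differences of over 0.5 on the log2 scale.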
